A study of Ictidomys tridecemlineatus with 15 samples.

Results

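The 103 transcription units described here were those with their lowest transcription in summer and a raised level in all 4 hibernation states of the 13-lined ground squirrel liver. They were chosen by a rule on the measured values. Of 4705 units that carry a single gene name, a unit was kept when its highest value in any summer active (SA) library lay below its lowest value in any of the 11 winter libraries, and when the SA mean lay 0.7 or more below the mean of the 4 winter state means. Values were log2(CPM + 1), where CPM is the counts of a unit per 1000000 counts of its library. The 103 units are 2.19% of those examined, and the mirror rule, with SA highest, picked 137 units (2.91%). Because the rule used the SA libraries, the difference between SA and winter is given below as a description with no test, and tests are given only for changes among the winter states.

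The libraries came from livers of female, laboratory-housed squirrels. The paper states that body temperature was taken with an implanted telemeter or logger, or by a rectal probe. SA animals (n = 3) were homeothermic before hibernation began. The hibernators were interbout aroused (IBA, n = 3), which is the warm interval between torpor bouts, entering torpor (Ent, n = 3), in early torpor (ET, n = 3) or in late torpor (LT, n = 2 with counts). Library totals ranged from 3713883 to 8884763 counts. SA replicate 1, Ent replicates 1 and 2 and both LT libraries came from the first of 3 collection seasons, the ET libraries from the second, and SA replicates 2 and 3, the IBA libraries and Ent replicate 3 from the third, so that ET and its season cannot be told apart. The LT and IBA libraries shared no season. The labels give no age.

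Global run-on sequencing (GRO-seq) lets RNA polymerases that are already engaged on a gene extend their transcript in isolated nuclei. Its reads count polymerases engaged on a gene and able to elongate, rather than stored RNA. They do not give the speed of those polymerases in the animal, and the authors proposed that elongation is greatly slowed in torpor. A hibernating squirrel does not eat for months and burns fat, which the liver oxidizes and turns into ketone bodies. The warm IBA liver is also fasted. Values are shares of a library, so a change in total transcription, or in the number of cells of a type, cannot be told apart from a change per cell.

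Markers of the sampled tissue were present. Of 15 hepatocyte markers, 8 had a unit of their own (Apob, Ttr, Tf, Fgb, Fgg, Cps1, Hnf4a and Pck1), and none of them was at 0 in any library. Their summed level ran from 10277 to 21039 CPM in SA, from 10922 to 14097 in IBA, from 9489 to 10362 in Ent, from 4126 to 6650 in ET and from 5344 to 7509 in LT. It was thus lower in the cold states, where most of the 103 units were highest, and its part in their level was not tested. No marker of macrophages, lymphocytes or dividing cells had a single-gene unit, the 3 endothelial markers (Pecam1, Stab1 and Kdr) summed to 131 to 237 CPM over all libraries, and Rgs5, Sox9 and Tfrc were among the measured markers of other cells. Itga2b, the 1 measured marker of neutrophils and platelets, ran from 20.2 to 21.1 CPM in SA, 11.8 to 15.2 in IBA, 24.4 to 27.3 in Ent, 28.5 to 42.0 in ET and 37.3 to 48.0 in LT, and its part was not tested. None of the 103 units was on a marker list.

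Over the 103 units, the mean of the winter state means lay a median of 0.96 (log2) above the SA mean, with a range of 0.71 to 3.00, against a median of 0.09 over all 4705 units. In 44 units the difference was 1 or more, and in 9 it was 2 or more. The level was usually modest in SA: the median of the SA means was 46.4 CPM, against 70.9 CPM for all units. The separation was narrow for many. The gap between the highest SA and the lowest winter library had a median of 0.17 (log2), was under 0.1 in 34 units and reached 0.3 in 30. TMM scaling of the library sizes left 79 units under the same rule, 75 of them among the 103, and lowered the median difference of all 4705 units from 0.09 to -0.0024.

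The winter level was not uniform. The median excess over SA among the 103 units was 0.63 (log2) in IBA, 0.98 in Ent, 1.22 in ET and 1.17 in LT. IBA was the lowest of the winter states in 77 units (74.8%), against 39.1% of all single-gene units. ET was the highest in 41 (39.8%) and LT in 41, against 25.08% and 24.97% of all. The order IBA below Ent below ET held in 70 units (68.0%), against 36.1% of all single-gene units, and the opposite order held in 11 units (10.7%), against 31.2%. Of the members, 41 were 0.7 or more above SA in IBA, 84 in Ent, 96 in ET and 98 in LT. The same counts over all 4705 units were 279, 516, 1030 and 1011, so they too were higher in the cold states. Among 433 other single-gene units 0.7 or more above SA on average, whose libraries overlapped with SA, 49.0% fell from LT to IBA. A lower level in IBA was thus also seen outside the members. The overlap that places a unit among these 433 can come from a low IBA, so their share is partly set by that choice. IBA came from the third season alone and LT from the first. The authors proposed that polymerases run past gene ends in torpor, and they extended units at the 3′ end where transcription was called beyond it. The part of such reads in the cold-state levels was not tested.

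**Figure D1:**
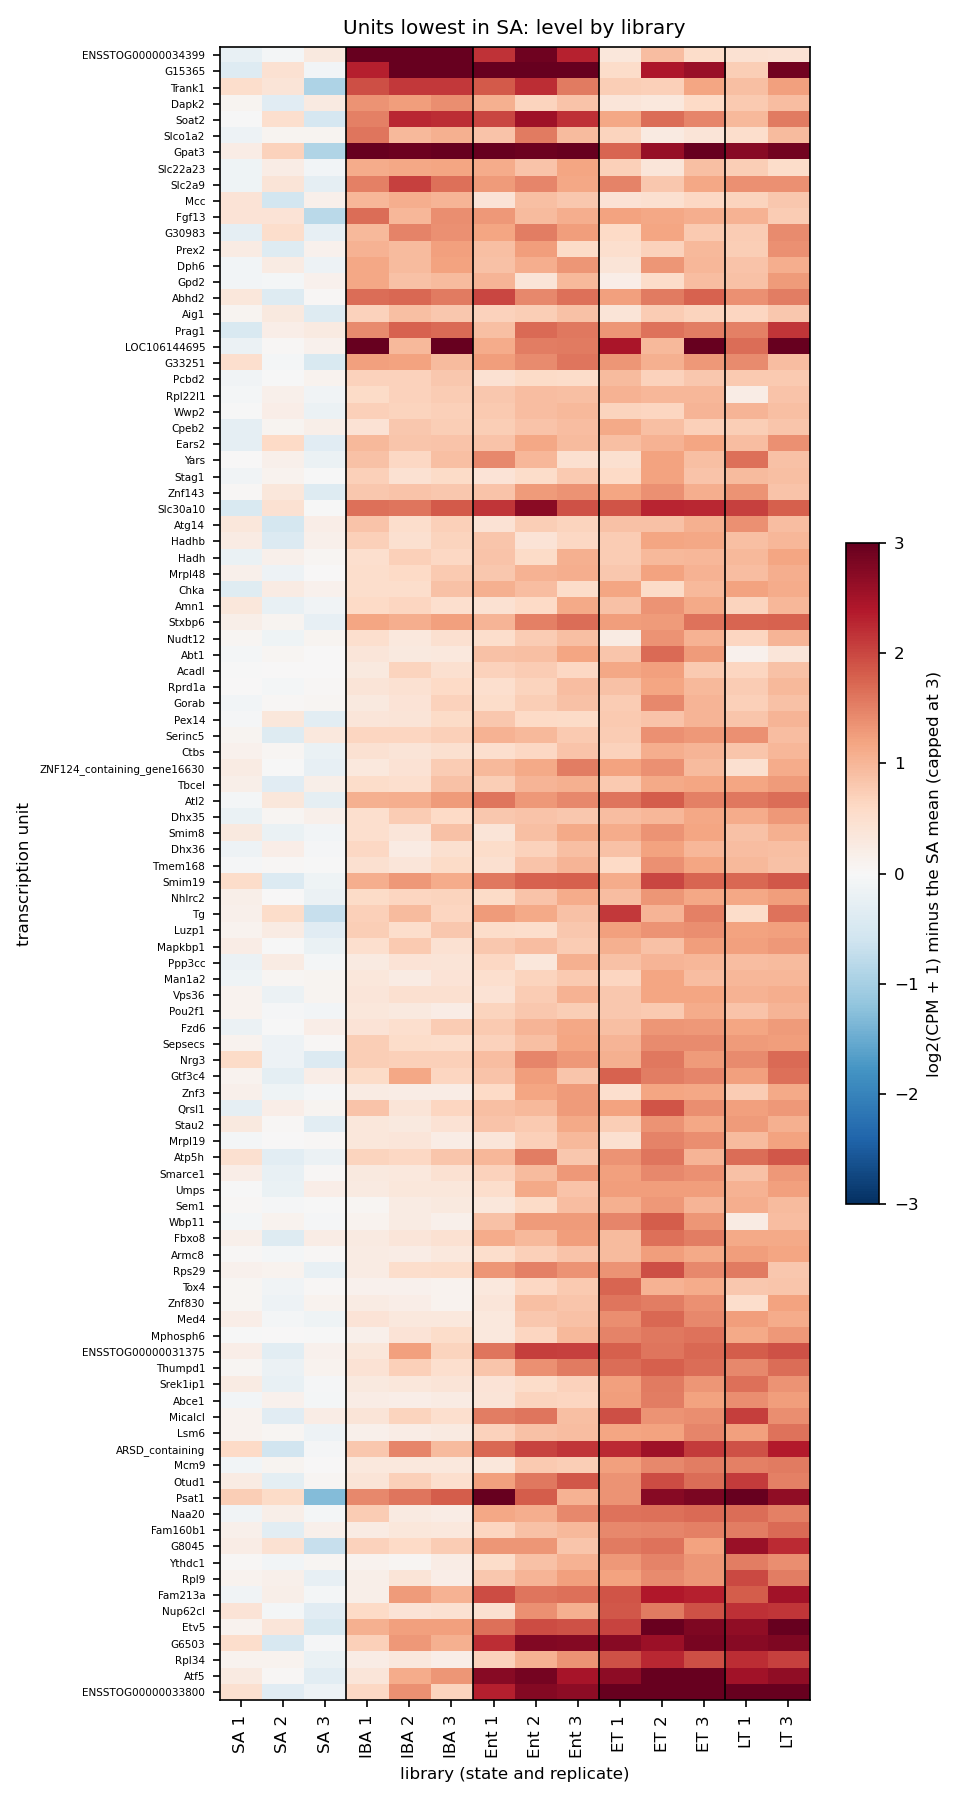
Level of 102 of the 103 units (rows) in each of the 14 libraries (columns, by state and replicate), as log2(CPM + 1) minus the unit's SA mean, with rows ordered by the rise from IBA to torpor. The colour scale stops at 3. All winter columns are above the SA columns by the rule, the top rows fade from IBA to LT, and the lower rows darken from IBA through Ent to ET and LT.

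The largest seasonal difference was that of Gpat3, which encodes an enzyme of the endoplasmic reticulum that starts triacylglycerol synthesis by adding a fatty acid to glycerol 3-phosphate. Its unit lay at chr14:4926254-5004367, minus strand, of the HiC_Itri_2 assembly, which all positions here refer to. Gpat3 had CPM of 67.6, 93.7 and 30.3 in SA, 654, 449 and 524 in IBA, 999.7, 448 and 654 in Ent, 197, 361 and 514 in ET, and 388 and 438 in LT. The highest SA library was thus below every winter library, and the winter mean was 8.01-fold above SA on the log2(CPM + 1) scale. Ent held the highest library and ET the lowest of the winter ones, with an Ent to ET change of -1.05 ± 0.41, adjusted p = 0.07 by edgeR (log2 ± SE), which did not pass the threshold of 0.001 used throughout.

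Of the named genes, Psat1, Atf5, Etv5 and Slc30a10 followed. Psat1, an aminotransferase of serine synthesis (chr3:127571090-127601096, minus strand), had CPM of 7.63, 6.73 and 1.13 in SA, 13.1, 14.8 and 17.3 in IBA, 46.3, 17.3 and 9.79 in Ent, 12.3, 33.6 and 36.0 in ET, and 83.5 and 32.2 in LT. Its SA libraries were spread widely, and replicate 3 of SA stood lowest. Atf5, a bZIP transcription factor of the amino acid and mitochondrial stress responses (chr16:22095897-22114027, plus strand), had CPM of 127, 107 and 83.5 in SA, 134, 228 and 264 in IBA, 702, 769 and 582 in Ent, 671, 949 and 905 in ET, and 602 and 666 in LT. IBA replicate 1 was near the highest SA library, with a gap of 0.08 (log2), while Ent, ET and LT formed a higher group that did not overlap with IBA. Etv5, an ETS-family transcription factor (chr7:117703835-117762605, plus strand), had CPM of 11.9, 14.5 and 7.77 in SA, 24.1, 27.3 and 27.5 in IBA, 36.9, 45.5 and 44.5 in Ent, 48.2, 93.6 and 82.5 in ET, and 75.5 and 95.2 in LT, so that SA, IBA, Ent and the torpor libraries stood in that order without overlap. Slc30a10, a membrane exporter of manganese (chr9:57004912-57025192, plus strand), had CPM of 19.1, 36.6 and 26.4 in SA, 85.1, 82.9 and 96.6 in IBA, 121, 179 and 103 in Ent, 99.99, 132 and 132 in ET, and 114 and 93.8 in LT. Its gap of 1.16 was the widest of the 103 units, and its IBA libraries lay below all Ent and ET libraries but overlapped with LT.

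Units with no gene symbol and no assigned role made up 10 of the 103, and 4 of these were among the 9 largest differences. G15365 (chr19:16068115-16072744, plus strand), within the merged unit Sec13:Atp2b2 of the opposite strand, had CPM of 0.449, 1.62 and 0.788 in SA, 8.57, 25.7 and 25.9 in IBA, 41.1, 54.5 and 80.3 in Ent, 1.78, 9.13 and 10.5 in ET, and 2.15 and 13.2 in LT, with counts as low as 2 in SA. It peaked in Ent, and its ET and LT libraries each included one close to the SA range. ENSSTOG00000033800 (chr16:49770098-49786364, minus strand) lies wholly within Kifc3 of the opposite strand and had CPM of 14.1, 7.54 and 8.67 in SA, 15.5, 26.7 and 16.2 in IBA, 53.7, 71.7 and 68.7 in Ent, 116, 135 and 112 in ET, and 119.8 and 179.8 in LT, with no overlap between SA, IBA, Ent and the torpor libraries. LOC106144695 (chr1:202839070-202875002, minus strand) had CPM of 4.94, 5.92 and 6.42 in SA, 151, 12.1 and 62.5 in IBA, 13.6, 18.4 and 18.7 in Ent, 35.6, 12.2 and 130.2 in ET, and 20.4 and 217 in LT, and the libraries of IBA, ET and LT each spanned a wide range. G6503 (chr11:50254198-50269712, minus strand) ran from 6.73 to 14.4 CPM in SA and 16.6 to 76.5 CPM in the winter libraries, with IBA between SA and the 3 other states.

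**Figure D2:**
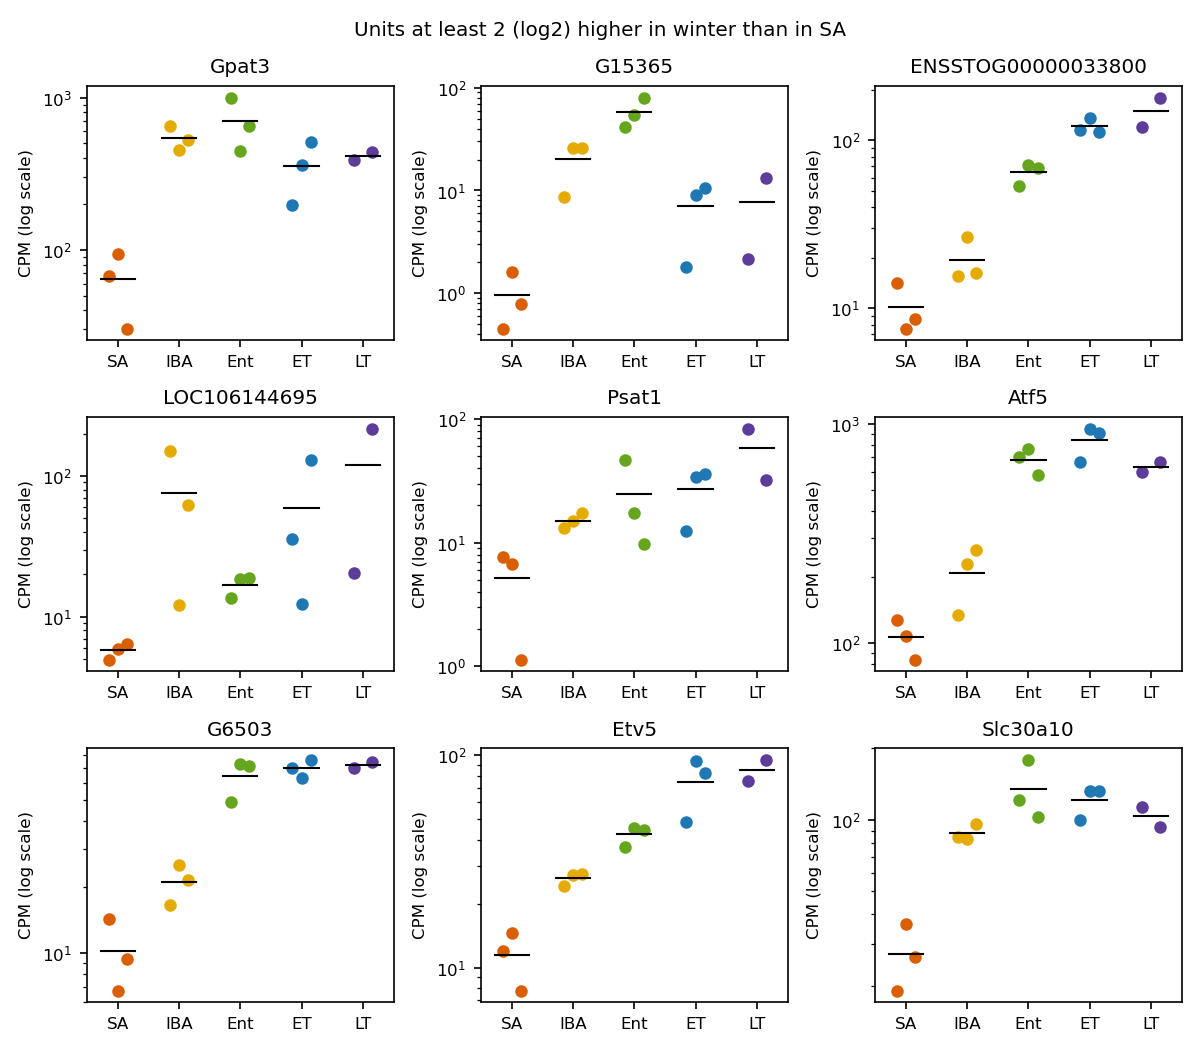
CPM (log scale) of the 9 units that were 2 or more (log2) higher in winter than in SA, with 1 point per library and a line at the mean of each state. The winter states of Slc30a10 lie close together, and those of Gpat3 were highest in Ent and lowest in ET. G15365 peaked in Ent, and ENSSTOG00000033800, Atf5, G6503 and Etv5 were lower in IBA than in the colder states.

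Genes of lipid metabolism and fat oxidation numbered 10, by roles assigned after the members were known. They were a median of 0.73 (log2) above SA in IBA, 0.81 in Ent, 0.97 in ET and 1.08 in LT. Soat2, which esterifies cholesterol in hepatocytes, had CPM of 8.98, 13.2 and 6.08 in SA, 27.3, 47.3 and 45.5 in IBA, 39.1, 57.5 and 44.7 in Ent, 21.5, 31.1 and 26.4 in ET, and 18.7 and 28.7 in LT. Its IBA and Ent libraries were mostly above those of ET and LT. Abhd2, a serine hydrolase that acts on lipids (chr5:131242485-131360093, minus strand), ranged over 506 to 838 CPM in SA and 1549.8 to 2659.9 CPM in the winter libraries, and its winter states differed little, with a gap to SA of 0.89 (log2). Chka, the choline kinase that opens phosphatidylcholine synthesis, ranged over 145 to 223 CPM in SA and 272 to 433 CPM in the winter libraries. Gpd2, the mitochondrial glycerol 3-phosphate dehydrogenase, ranged over 141 to 161 CPM in SA and 169.6 to 363 CPM in the winter libraries. Pex14, part of the peroxisomal import machinery, and Aig1, a hydrolase of fatty acid esters of hydroxy fatty acids, were each 0.73 above SA.

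Mitochondrial beta-oxidation was represented by Hadh (0.86 above SA), Hadhb (0.81) and Acadl (0.75). Hadh, the dehydrogenase of medium and short 3-hydroxyacyl-CoA chains (chr15:12575170-12653703, minus strand), had CPM of 221, 282 and 267 in SA, 363, 420.2 and 396 in IBA, 465, 379.8 and 532 in Ent, 436, 501 and 512 in ET, and 502 and 577 in LT. Acadl, the long-chain acyl-CoA dehydrogenase (chr6:166494513-166528672, minus strand), had CPM of 117, 118 and 119 in SA, 144, 188 and 166 in IBA, 189.8, 202 and 183 in Ent, 267, 279.9 and 205 in ET, and 186 and 216 in LT. Its SA libraries were almost identical, and all winter libraries stood above them. Hadhb, the beta subunit of the mitochondrial trifunctional protein (chr12:64657387-64716472, plus strand), had CPM of 243, 154 and 225 in SA, 332, 284 and 326 in IBA, 362, 270.4 and 314 in Ent, 345, 459.6 and 456 in ET, and 383 and 404 in LT. Hadha, the alpha subunit of the same protein, is transcribed away from Hadhb on the other strand, and the edges of both units, from which the authors had removed the first 500 nt, lay 993 nt apart. Hadha had CPM of 179.9, 127 and 192 in SA, 244, 220.2 and 247 in IBA, 243, 228 and 234 in Ent, 235, 329 and 304 in ET, and 294 and 334 in LT, also without overlap between SA and winter, but its difference of 0.6952 fell just short of the margin of 0.7.

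**Figure D3:**
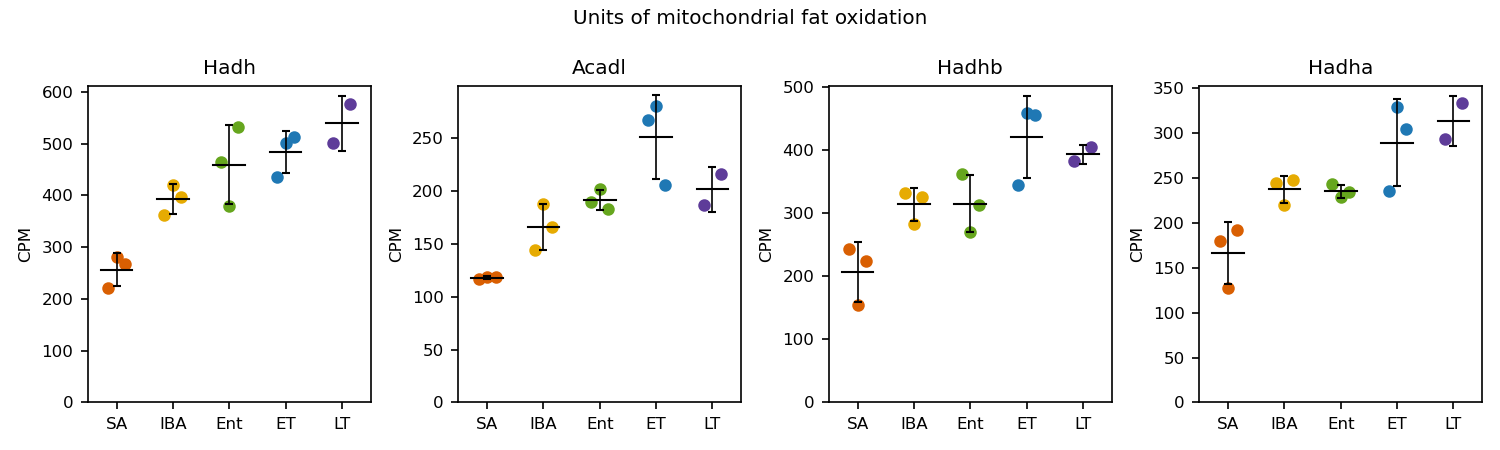
CPM of Hadh, Acadl, Hadhb and Hadha in each library (points), with the mean and SD of each state. All winter points of each unit lie above its SA points, and Hadha is the unit just outside the margin.

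Most measured genes on a list of PPAR alpha targets and ketogenesis were not among the members. Of its 36 genes, 15 had a single-gene unit and 2 of these were members (Acadl and Hadhb). Another 14 genes lay only in merged units, which could not be members. Among those merged units, Cpt1a:Tesmin met the same rule (1.39 above SA, log2). The median difference of the 15 from SA was 0.07 (log2), against 0.09 for all units. Vnn1 (-1.61), Pdk4 (-1.47) and Txnip (-1.03) were lower in winter on average, Acadm (0.07) and Acadvl (0.07) differed little, and Acat1 (1.02) and Pex11a (0.85) exceeded the margin but overlapped with SA. From LT to IBA, 3 of the 15 rose (Vnn1, Fabp1 and Bdh1) and none fell at an adjusted p of 0.001, where 8.18% of all single-gene units rose and 9.46% fell, and neither Acadl (-0.18 ± 0.15, adjusted p = 0.35) nor Hadhb (-0.22 ± 0.21, adjusted p = 0.39) passed in edgeR. One member, Atg14, a subunit of the lipid kinase complex that starts autophagosomes, was on the list of autophagy and lysosome genes (17 single-gene units, median 0.18), and ranged over 36.4 to 67.8 CPM in SA and 72.2 to 139 CPM in the winter libraries. From LT to IBA, 2 of these 17 fell (Gabarapl2 and Neu1) and 1 rose (Atg3), against the same 9.46% and 8.18% of all units. The other 10 function lists, among them gluconeogenesis, fatty acid synthesis, the circadian clock and plasma proteins, held no member. They had 11 to 30 single-gene units each. Members made up 2.19% of all single-gene units, so their number on lists this small says little about these pathways.

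Genes of amino acid response and tRNA charging numbered 6. Besides Psat1 and Atf5 they were Yars, the tyrosyl-tRNA synthetase, Ears2, the mitochondrial glutamyl-tRNA synthetase, Qrsl1, a subunit of the mitochondrial glutamyl-tRNA amidotransferase, and Sepsecs, which makes selenocysteinyl-tRNA. Yars ranged over 37.8 to 48.2 CPM in SA and 59.8 to 138 CPM in the winter libraries. Ears2 ranged over 25.1 to 48.7 CPM in SA and 57.6 to 84.6 CPM in the winter libraries. Qrsl1 ranged over 8.76 to 12.7 CPM in SA and 14.6 to 43.2 CPM in the winter libraries, and Sepsecs over 62.5 to 74.3 CPM in SA and 99.7 to 187 CPM in the winter libraries. IBA was the lowest winter state in all 6, and ET or LT the highest in all 6.

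Membrane transporters numbered 5. Their median excess over SA was 1.21 (log2) in IBA, 1.13 in Ent and 1.15 in both ET and LT. Slc2a9, a transporter of urate, had CPM of 62.4, 90.5 and 57.0 in SA, 198, 287 and 217 in IBA, 167, 191 and 154 in Ent, 196, 121 and 154 in ET, and 178 and 179 in LT, with IBA highest. Slco1a2, an uptake carrier of bile acids and other organic anions, ranged over 89.8 to 106 CPM in SA and 120.4 to 306 CPM in the winter libraries, again with IBA highest. Slc22a23, of the organic ion transporter family, ranged over 558 to 717 CPM in SA and 782 to 1383 CPM in the winter libraries, and all 3 IBA libraries were above both LT libraries, without passing the threshold (0.59 ± 0.19, adjusted p = 0.022). Serinc5, of the serine incorporator family, ranged over 208 to 339 CPM in SA and 429.7 to 712 CPM in the winter libraries, with ET highest.

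Genes of signalling and the cytoskeleton numbered 12, and IBA was highest in 4 of them (Fgf13, Dapk2, Prex2 and Mcc). Dapk2, a death-associated protein kinase, had CPM of 180.3, 136 and 206 in SA, 439, 408 and 456 in IBA, 363, 274 and 314 in Ent, 220.0, 213 and 259 in ET, and 299 and 327 in LT. Its IBA libraries stood above all others, and its ET libraries came closest to SA. Prag1, a pseudokinase scaffold, ranged over 15.3 to 26.0 CPM in SA and 40.8 to 98.4 CPM in the winter libraries. Nrg3, an ERBB4 ligand, and Fgf13, an intracellular member of the fibroblast growth factor family, were 1.20 and 1.13 above SA. Fzd6, a Wnt receptor, ranged over 26.0 to 33.9 CPM in SA and 39.6 to 75.9 CPM in the winter libraries.

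Genes of the ribosome and translation (12), of RNA processing (7) and of transcription and chromatin (13) had lower medians in IBA than in torpor. The median excess over SA went from 0.43 (log2) in IBA to 1.22 in ET for the first group, from 0.34 to 1.36 for the second and from 0.35 to 1.27 for the third. Over all 103 units it went from 0.63 to 1.22, so the direction was not particular to these groups. IBA was the lowest winter state in 10, 7 and 12 of these units. Single units departed from the medians, among them Etv5, which was 1.18 above SA in IBA, and Dph6, at 1.11 in IBA and 0.90 in ET. Rpl34, a protein of the large ribosomal subunit (chr15:12093521-12108244, minus strand), had CPM of 44.0, 43.9 and 35.7 in SA, 48.2, 51.4 and 47.3 in IBA, 66.9, 86.0 and 107 in Ent, 157, 199.8 and 161 in ET, and 194 and 173 in LT. Its IBA libraries were barely above SA, and ET and LT were higher than Ent. Rpl9, of the same subunit (chr14:39230499-39242754, plus strand), had CPM of 56.8, 58.4 and 43.9 in SA, 59.7, 68.7 and 60.8 in IBA, 93.2, 108 and 125 in Ent, 123, 142 and 133 in ET, and 209.9 and 155 in LT, with a gap of 0.03. Ribosomal protein genes have many near-identical copies in mammalian genomes, so their counts are less certain than those of other units, although the authors kept only uniquely aligned reads. Rps29, of the small subunit, ranged over 16.9 to 21.6 CPM in SA and 23.6 to 78.6 CPM in the winter libraries, and Rpl22l1 over 14.1 to 17.0 CPM in SA and 17.6 to 31.9 CPM in the winter libraries. Abce1, which splits ribosomes for reuse, was 0.22 above SA in IBA and 1.34 above in ET. Naa20, which acetylates protein N-termini, ranged over 43.3 to 52.8 CPM in SA and 55.0 to 156 CPM in the winter libraries, and Thumpd1, an adaptor for tRNA acetylation, over 14.0 to 17.1 CPM in SA and 21.7 to 57.7 CPM in the winter libraries.

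In the RNA processing group, Ythdc1, the nuclear reader of N6-methyladenosine (chr14:17544037-17597603, minus strand), had CPM of 175, 161 and 179.9 in SA, 186, 181 and 201 in IBA, 254, 317 and 354 in Ent, 424, 481 and 431 in ET, and 499 and 456 in LT. IBA almost touched SA, with a gap of 0.01, and ET and LT were each above all Ent libraries. Lsm6, a component of Sm-like RNA-binding rings, was 0.22 above SA in IBA and 1.43 in LT. In the third group, Gtf3c4, a subunit of the RNA polymerase III factor TFIIIC, ranged over 47.1 to 67.2 CPM in SA and 87.6 to 201 CPM in the winter libraries, and Znf143, a zinc finger activator, over 34.7 to 57.6 CPM in SA and 79.8 to 118 CPM in the winter libraries. Med4 of the Mediator complex was 0.35 above SA in IBA and 1.51 in ET, and Smarce1 of the BAF chromatin remodelling complex 0.35 and 1.35.

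**Figure D4:**
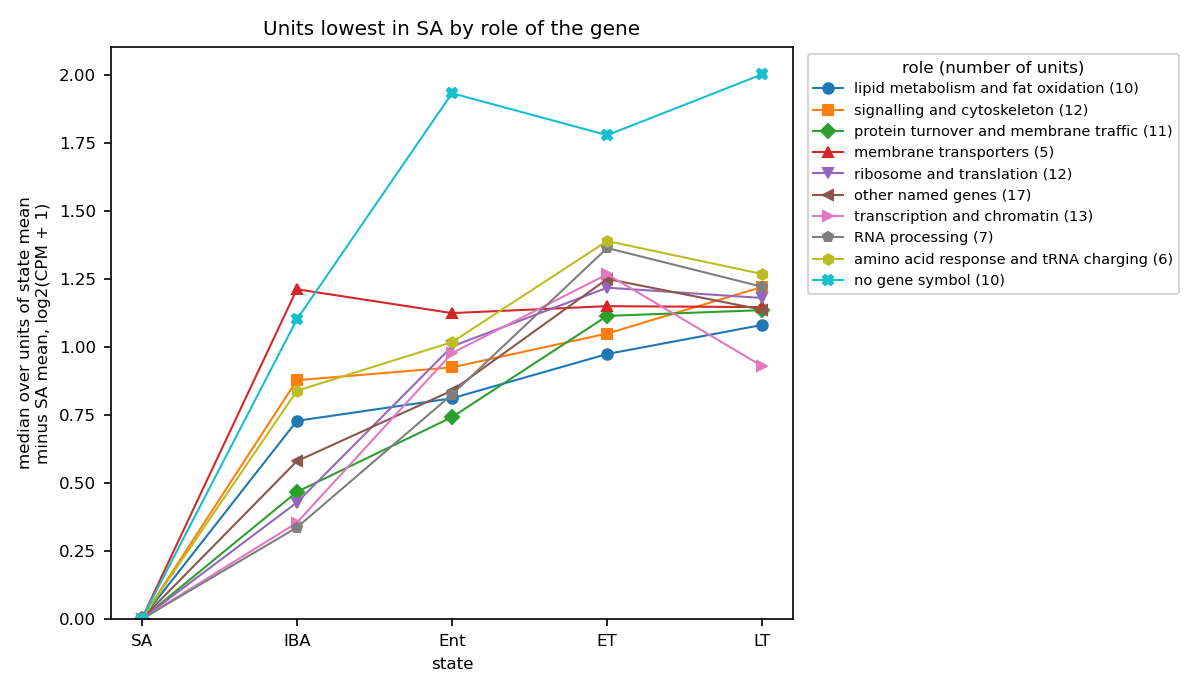
Median over the units of each role of the state mean minus the SA mean, in log2(CPM + 1), for SA (0 by construction) and the 4 winter states. Transporters have a median of 1.21 in IBA and 1.15 in LT, and RNA processing units go from 0.34 in IBA to 1.36 in ET.

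Genes of protein turnover and membrane traffic numbered 11, and IBA was the lowest winter state in 10. Otud1, a deubiquitinase, ranged over 10.8 to 16.2 CPM in SA and 17.9 to 61.4 CPM in the winter libraries. Atl2, an atlastin that fuses endoplasmic reticulum tubules, ranged over 119 to 182 CPM in SA and 302 to 515 CPM in the winter libraries, and Stxbp6, a SNARE-binding protein, over 125 to 170.0 CPM in SA and 304 to 517 CPM in the winter libraries. Of the remaining 17 named genes, Fam213a, a peroxiredoxin-like protein, had CPM of 31.9, 39.3 and 33.1 in SA, 39.4, 85.1 and 72.1 in IBA, 138, 107 and 112 in Ent, 130.3, 187 and 179.7 in ET, and 124 and 202 in LT. IBA replicate 1 was almost level with the highest SA library, and the other IBA libraries were well above. Atp5h, a subunit of the mitochondrial ATP synthase, ranged over 20.7 to 36.6 CPM in SA and 40.5 to 97.4 CPM in the winter libraries. Smim19, a small membrane protein, ranged over 13.5 to 26.9 CPM in SA and 39.9 to 75.5 CPM in the winter libraries, and Nup62cl over 7.77 to 13.9 CPM in SA and 14.0 to 50.2 CPM in the winter libraries. Trank1 ranged over 18.9 to 53.9 CPM in SA and 61.4 to 175 CPM in the winter libraries, with IBA highest. Tg, which encodes thyroglobulin, the precursor of thyroid hormone made in the thyroid, ranged over 174 to 414 CPM in SA and 415 to 1238 CPM in the winter libraries. Its unit began 2938 nt after the end of Phf20l1 on the same strand, and Phf20l1 was itself above SA in all winter libraries (0.46 on the log2 scale). The part of reads that run on from Phf20l1 was not tested.

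The changes among the winter states were fitted on all 6324 units with edgeR (quasi-likelihood), and p-values were adjusted over all of them by the Benjamini-Hochberg method. The rule bounds these changes, since no winter library may fall to the SA range, and the counts below are to be read with that limit. The transitions share libraries, so they are not independent of each other. Replicates were different animals.

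From LT to IBA, the warming step, 16 of the 103 units fell (15.5%) and 1 rose at an adjusted p of 0.001. Of all single-gene units, 9.46% fell and 8.18% rose. At 0.05, 47 members fell and 5 rose, against 24.1% and 26.6% of all units. The members that fell were ENSSTOG00000033800, Rpl34, G6503, G8045, Nup62cl, Etv5, Atf5, Rpl9, Ythdc1, Fam160b1, Lsm6, Mcm9, Srek1ip1, Naa20, Abce1 and Armc8. The steepest falls were those of ENSSTOG00000033800 (-2.84 ± 0.28, adjusted p = 1.6e-05), Rpl34 (-1.81 ± 0.19, adjusted p = 2.1e-05) and G6503 (-1.67 ± 0.26, adjusted p = 0.00028), in log2 ± SE by edgeR, and none of their IBA libraries overlapped with LT. Atf5 (-1.51 ± 0.25, adjusted p = 0.00037), Etv5 (-1.59 ± 0.26, adjusted p = 0.00035) and Rpl9 (-1.44 ± 0.18, adjusted p = 5.7e-05) fell as well. State and season differed together in this step, since LT was of the first season and IBA of the third. With season as a covariate in edgeR, 5 of the members still passed 0.001, among them ENSSTOG00000033800 (adjusted p = 0.00063). The other 12 did not, among them Atf5 (adjusted p = 0.017), Etv5 (0.0075) and G6503 (0.0098). By role, 4 of the 12 units of the ribosome and translation, 3 of the 7 of RNA processing, 1 of the 13 of transcription and none of the 12 of signalling, 10 of lipid metabolism and 5 of transport fell at 0.001. At 0.05, 8, 5, 7, 4, 0 and 0 units of these groups fell. The groups are small, and their shares were not tested against that of all members.

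The 1 unit that rose from LT to IBA was ENSSTOG00000034399 (chr5:153830113-153845543, minus strand), with CPM of 4.72, 5.39 and 7.20 in SA, 71.5, 61.9 and 72.7 in IBA, 28.8, 49.8 and 31.9 in Ent, 7.42, 11.6 and 8.75 in ET, and 8.13 and 8.0 in LT. It was highest in IBA, intermediate in Ent and close to SA in torpor, with a change of 3.19 ± 0.29, adjusted p = 1.1e-05 by edgeR. It was also the only member past the threshold from Ent to ET, where it fell (-2.04 ± 0.24, adjusted p = 0.00029). Soat2 (0.86 ± 0.31, adjusted p = 0.037) and Trank1 (1.10 ± 0.34, adjusted p = 0.018) had changes of the same sign from LT to IBA that did not pass 0.001.

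The rule itself bears on the share that fell. Of 433 single-gene units that were 0.7 or more above SA on average and overlapped with SA, 212 fell from LT to IBA (49.0%) and 3 rose. The rule removes units whose IBA libraries return to the SA level, so the contrast between 15.5% and 49.0% is no property to be read from the members. The count of 17 members changed was 29 with DESeq2 (28 lower and 1 higher, against 15.9% and 16.3% of all units). It was 5 (4 lower, 1 higher) with season as a covariate, and 6 to 11 when 1 of the IBA or LT libraries was left out, lowest without LT replicate 1.

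**Figure D5:**
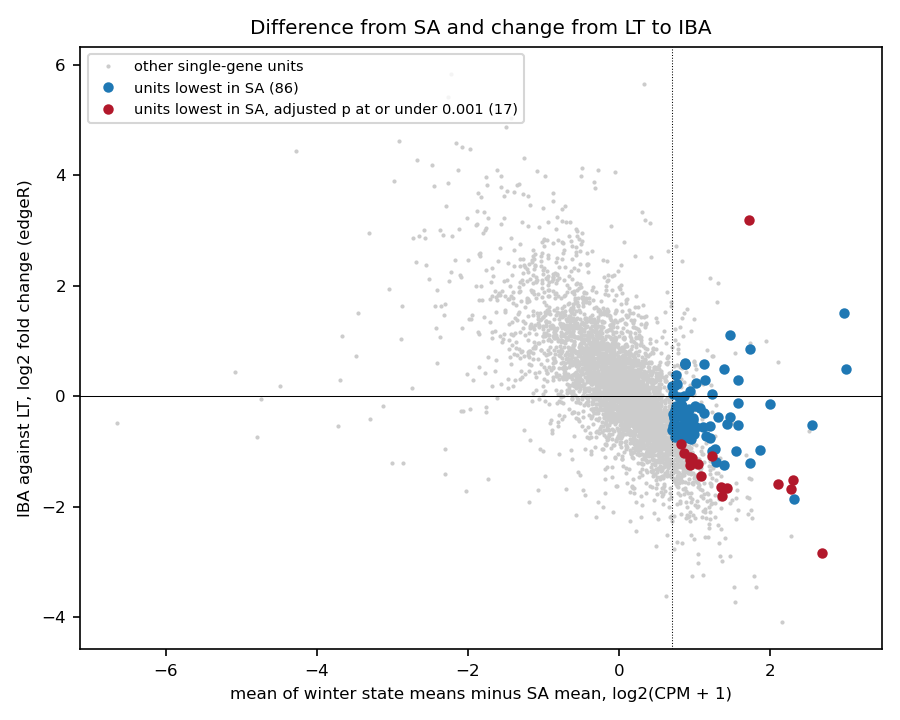
Log2 fold change of IBA against LT by edgeR (vertical) against the difference of winter from SA that the rule used (horizontal, log2(CPM + 1)), for all single-gene units (grey) and the 103 members (blue, or red when past the adjusted p of 0.001, 17 units). The dotted line is the margin of 0.7, and 16 of the red points lie below 0.

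From IBA to Ent, the entrance into torpor, no member passed 0.001 in either direction in edgeR, where 0.0213% of all units rose and 0.0213% fell. At an unadjusted p of 0.05, 33 members were higher and 4 lower in Ent, against 16.6% and 16.8% of all units. At an adjusted p of 0.05, 21 members rose and 1 fell, against 8.57% and 8.12% of all units, and DESeq2 called 10 members at 0.001 (9 higher and 1 lower, against 3.38% and 3.61% of all units). Atf5 (1.66 ± 0.23, adjusted p = 0.0025), G6503 (1.55 ± 0.24, adjusted p = 0.0033) and ENSSTOG00000033800 (1.67 ± 0.26, adjusted p = 0.0032) had the lowest adjusted p by edgeR. Ent lay above IBA in 83 of the 103 units, against 47.9% of all.

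From Ent to ET, 0 members rose and 1 fell at 0.001, against 1.13% and 1.17% of all units. At 0.05, 17 rose and 6 fell, against 15.4% and 13.8% of all units, and DESeq2 called 8 higher and 2 lower at 0.001, against 8.44% and 6.93%. By edgeR, Abce1 (0.73 ± 0.12, adjusted p = 0.0013), Mcm9 (0.73 ± 0.12, adjusted p = 0.0014) and Rpl34 (0.94 ± 0.17, adjusted p = 0.0019) had positive changes. Those of G15365 (-3.12 ± 0.65, adjusted p = 0.0044), Trank1 (-1.06 ± 0.30, adjusted p = 0.019) and Soat2 (-0.89 ± 0.27, adjusted p = 0.029) were negative. None of these changes passed 0.001. ET was collected in a season of its own, so state and season cannot be told apart here. From ET to LT, no member passed 0.001 or 0.05 in either direction, in edgeR or, at 0.001, in DESeq2, and 5 were higher and 5 lower at an unadjusted p of 0.05, against 3.19% and 6.08% of all units. Of all units, 0.0% rose and 0.0% fell at 0.001, and 0.0% rose and 0.34% fell at 0.05. DESeq2 called 0.0425% of all units higher and 0.659% lower at 0.001.

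The difference from SA was also taken within seasons. Among first-season animals, with 1 SA library against Ent replicates 1 and 2 and the LT libraries, the median difference was 0.99 (log2) with a range of 0.29 to 3.63. Among third-season animals, with 2 SA libraries against IBA and Ent replicate 3, it was 0.76 with a range of 0.28 to 3.66. The direction in both is fixed by the rule. Over all single-gene units the medians were 0.13 and 0.04.

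Along the genome, 102 of the 103 units were in 1 piece, and 15 were overlapped by another unit, in each case on the opposite strand. The sources used here do not state whether strand was used in counting, so the reads of such pairs cannot be told apart with certainty. Kifc3, around ENSSTOG00000033800, differed from SA by -0.04 (log2), and Sec13:Atp2b2, around G15365, was 1.02 (log2) above SA and met the rule itself. Znf830 lay wholly within Cct6b, which differed by -0.10. Atf5, Naa20 and Rpl9 were overlapped in part by Il4i1:Nup62 (-0.32), Crnkl1 (0.33) and Klb (-0.42). Mcm9 and Asf1a overlapped over 13431 nt, and both were above SA (0.97 and 0.95). A neighbour upstream on the same strand within 20 kb was found for 10 of 102 members (9.80%), against 8.79% of all units. Of these, G8045 followed Atl2, another member, by 10617 nt, and Micalcl followed Mical2 by 1630 nt. Mical2 was 1.42 above SA but overlapped with it, with CPM of 111, 87.2 and 155 in SA, 118, 142 and 135 in IBA, 327, 372 and 269.8 in Ent, 563, 406 and 419.7 in ET, and 468 and 456 in LT, and Micalcl had CPM of 31.4, 22.9 and 34.1 in SA, 38.0, 46.9 and 41.8 in IBA, 85.5, 90.3 and 55.0 in Ent, 113, 75.5 and 78.2 in ET, and 126 and 78.6 in LT. All libraries of Ent, ET and LT were above those of SA in both units. The members were of ordinary size, with a median length of 39653 nt against 36217 nt, and 45 lay on the plus strand.

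The members just inside the margin were Pou2f1, Abt1 and Tox4, each 0.71 (log2) above SA, and the units just outside it were Aebp2, Smyd2 and Hadha at 0.70. Tox4 ranged over 56.8 to 63.3 CPM in SA and 65.8 to 207 CPM in the winter libraries. Aebp2 ranged over 53.3 to 59.5 CPM in SA and 63.2 to 141 CPM in the winter libraries. At any margin, 198 units had SA lowest without overlap and 169 had SA highest, whereas at the margin of 0.7 the counts were 103 and 137.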

How the data were processed

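GRO-seq was run on liver nuclei of 13-lined ground squirrels in 5 states. The authors trimmed the reads with cutadapt, aligned them to the HiC_Itri_2 genome with BWA, extended gene bodies at the 3′ end where Fstitch called transcription beyond it in any state, removed the first 500 nt of each, merged overlapping genes and counted uniquely aligned reads with featureCounts. The deposited values are raw counts of 6324 units in 14 of 15 labelled samples. LT replicate 2, removed by the authors, was not used here, and 1619 units of merged genes entered the fits but could not be members.

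Members and gene lists were chosen with earlier results of these data known. CPM used the column sum, with a pseudocount of 1 for log2 values. Counts were normalized by TMM and fitted with edgeR 4.0.16 (R 4.3.3), a quasi-likelihood model of the 5 states, without a replicate block; p-values were adjusted by the Benjamini-Hochberg method over 6324 units at a threshold of 0.001. Fold changes are log2 ± SE. Named genes were the 30 members with a symbol and the largest difference from SA, the 3 largest without one, members on a fixed list, the 3 largest rises and falls per transition without overlap, and 3 units on each side of the margin; other names, and the roles, were chosen after the values were seen. A member and a marker gene are not reported here by name, and the heat map leaves that member out. Units are not replicates of a condition. The fits were tested on simulated data. DESeq2 1.42.0, other scalings, pseudocounts, margins and a minimum of 10 counts, season and each library left out were alternatives. Tables were made with Python 3.11.15, pandas 2.3.3, numpy 2.4.6 and matplotlib 3.10.9. A planned search of promoter sequence was not run, and no sequence was used here. Gene symbols are those of the counts, of which 87 of 103 members matched a RefSeq symbol or synonym.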

Additional observations from a re-analysis of the deposited data

How the results depend on the processing

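The rule gave 103 units. It gave 79 with TMM library sizes and 76 with DESeq2 size factors, 75 and 74 of them among the 103, and 44 at a margin of 1. With 1 library left out the number ran from 99 to 213. It was highest without SA replicate 2 (213) and SA replicate 1 (203) and was 174 without IBA replicate 1. Any library left out leaves fewer to clear, but it also moves the means that the margin uses. Among the 103 units, SA replicates 1 and 2 were most often the highest SA library (40 and 36 units). IBA replicate 1 was most often the lowest winter library (37 units). The median difference from SA ran from 0.95 to 1.02 (log2) with 1 library left out and was 0.76 in the third season alone, against 0.96. For LT to IBA, 17 members passed an adjusted p of 0.001, 52 passed 0.05, 29 passed with DESeq2, 5 with season as a covariate and 6 to 18 with 1 library left out. Left out singly, IBA replicates 1, 2 and 3 gave 11, 10 and 11, and LT replicates 1 and 3 gave 6 and 9; a lone LT library was then assumed to vary like the other groups. For Ent to ET, 1 member passed, 23 passed 0.05, 10 passed with DESeq2 and 0 to 1 with 1 library left out. For IBA to Ent, 0 passed, 22 passed 0.05, 10 passed with DESeq2, and 0 passed with any library left out. For ET to LT, 0 passed under every setting. With replicate number as a block, 13 members passed for LT to IBA, 2 for Ent to ET and 0 for the others; same-numbered libraries of different states correlated with a median r of 0.04 over 26 pairs, with 7 pairs over 0.1, so the numbers do not pair the animals. No direction was reversed in any of these fits for the members past the threshold. Counts of 2 or 3 animals per state limit the precision of all fold changes.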

Other observations

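Among the 1619 units of merged genes, which cannot be assigned to 1 gene, 28 met the same rule on the same libraries. The largest differences from SA were those of LOC110598479:UBE2F (3.18, log2), G36990:G36989 (2.43), Slc25a33:G5860:Tmem201 (2.26), G33267:Abca9 (2.01) and Miox:Adm2 (1.86). The unit Cpt1a:Tesmin holds the gene of the carnitine palmitoyltransferase that controls the entry of long-chain fatty acids into mitochondria. It was 1.39 above SA, with means of 497 CPM in SA, 789 in IBA, 1177 in Ent, 1611 in ET and 1921 in LT. The unit Slc25a33:G5860:Tmem201, whose first gene encodes a mitochondrial pyrimidine nucleotide carrier, had means of 73.3 CPM in SA, 180.2 in IBA, 385 in Ent, 489 in ET and 507 in LT. These units were chosen by the values given, so no test was made, and the reads of their genes cannot be told apart.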
